A study of Mus musculus with 80 samples.

Results

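The 7 X-linked genes Hprt, Pgk1, Atrx, Huwe1, Ogt, Dusp9 and Klhl13, which serve as readouts of X chromosome silencing, were followed through chromatin-associated RNA-seq (ChrRNA-seq) of mouse embryonic stem cells. They were chosen by name, with earlier results of these data known: the housekeeping and chromatin genes Hprt, Pgk1, Atrx, Huwe1 and Ogt, and the developmental regulators Dusp9 and Klhl13. They are 7 of 908 X-linked genes and of 22556 genes in the expression tables. On GRCm38, Hprt lies at chrX:52988078-53021660 (plus strand), Pgk1 at chrX:106187100-106203699 (plus), Atrx at chrX:105797615-105929372 (minus), Huwe1 at chrX:151803282-151935417 (plus), Ogt at chrX:101640051-101684351 (plus), Dusp9 at chrX:73639441-73643514 (plus) and Klhl13 at chrX:23219271-23285428 (minus), as the deposited tables give them. The counted length of Klhl13, 145.813 kb, runs beyond these coordinates, to chrX:23365082 in GENCODE. Ogt, Atrx and Pgk1 start 1.84, 2.45 and 2.70 Mb from Xist, and Dusp9, Huwe1, Hprt and Klhl13 start 29.8, 48.3, 50.5 and 80.1 Mb from it. No other gene of the tables overlaps any of the 7 on either strand.

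Xist is the long noncoding RNA that coats the X chromosome it is transcribed from and recruits silencing factors such as SPEN, so that most genes of that chromosome lose transcription while some escape. Hprt (purine salvage) and Pgk1 (a glycolytic kinase) have long been used to follow X inactivation, Atrx encodes a chromatin remodeller, Huwe1 a large ubiquitin ligase and Ogt the only enzyme that adds O-linked GlcNAc to nuclear and cytoplasmic proteins. Dusp9 encodes a phosphatase of ERK and Klhl13 a substrate adaptor of CUL3 ubiquitin ligases, and both are known as X-dosage-sensitive regulators of signalling in female embryonic stem cells.

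The cells derive from a female 129S × Mus castaneus (Cast) F1 line and carry a TetOn promoter at Xist on only 1 X, so that 24 h of doxycycline (Dox) induces Xist and silencing of that chromosome, here called Xi, while the other X (Xa) stays active. The question was how loss of the m6A writer METTL3, the nuclear m6A reader YTHDC1, the NEXT complex subunit ZCCHC8 or the PAXT complex subunit ZFC3H1 affects this silencing. In each line the target protein carries an FKBP12 degron tag, and dTAG-13 depletes it. The 4 treatments of each line were none, dTAG (26 h in the titles, 2 h in the treatment field), 24 h of Dox, and dTAG + Dox, in which dTAG preceded Dox by 2 h and was kept for the 24 h of induction. METTL3 had 4 clones, G4 and H1 with an N-terminal and C3 and H5 with a C-terminal tag. ZCCHC8 (Z4F, Z12H), ZFC3H1 (8H, 11A) and YTHDC1 (Y9F, Y12H, in 2 experiments) had 2 clones each, all with a C-terminal tag. The Xi is the Cast chromosome in the METTL3 and ZFC3H1 lines and the 129S chromosome in the ZCCHC8 and YTHDC1 lines. The inducible Xist of the ZCCHC8 and YTHDC1 lines also carries an array of Bgl stem-loops, which that of the other lines lacks. Complementation lines were built in the METTL3 clone H5 with a GFP-METTL3 transgene, wild type (WT) or catalytically inactive (D395A), under the Rosa26 promoter. Each was 1 clone with 2 experiments, either XX (WT_P2B3, D395A_1F) or XiO, which keeps only the X with the inducible Xist (WT_1A, D395A_9F). The study describes less D395A than WT protein in cells without dTAG. Since each transgene line is 1 clone, its p-values measure only the spread between experiments, and clone and transgene cannot be told apart. In all, 80 libraries fell into 36 groups.

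The promoters of Pgk1 and Hprt, which lost most of their Xi share with Dox, and of Ogt, among those that lost least, are shown as the 250 bases before the RefSeq transcription start on GRCm38.p6: Pgk1 (chrX:106186850-106187099, plus), Hprt (chrX:52987828-52988077, plus) and Ogt (chrX:101639801-101640050, plus). Capitals mark the GC box GGGCGG on either strand, the letters bound by SP factors.
Pgk1: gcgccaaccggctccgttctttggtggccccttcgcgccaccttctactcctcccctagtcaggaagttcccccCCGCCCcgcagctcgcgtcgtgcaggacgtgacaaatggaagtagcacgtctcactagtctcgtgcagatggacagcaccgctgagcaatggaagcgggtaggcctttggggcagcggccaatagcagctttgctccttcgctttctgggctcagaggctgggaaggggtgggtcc
Hprt: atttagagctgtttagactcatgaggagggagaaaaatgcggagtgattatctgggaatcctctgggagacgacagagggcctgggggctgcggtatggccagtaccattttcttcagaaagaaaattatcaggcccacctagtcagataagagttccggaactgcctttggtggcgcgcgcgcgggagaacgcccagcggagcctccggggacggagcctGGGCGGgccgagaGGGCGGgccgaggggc
Ogt: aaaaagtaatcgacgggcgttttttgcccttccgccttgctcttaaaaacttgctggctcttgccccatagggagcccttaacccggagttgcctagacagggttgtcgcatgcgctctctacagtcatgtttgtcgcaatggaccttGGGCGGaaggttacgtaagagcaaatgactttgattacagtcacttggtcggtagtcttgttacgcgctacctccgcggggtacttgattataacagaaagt
These windows held 17, 17 and 15 CpG dinucleotides for Pgk1, Hprt and Ogt, against a median of 6 over all 32851 RefSeq promoters of this length. Those of Huwe1 and Klhl13 held 23 and 12, and that of Atrx held 6. A GC box was found in 5 of the 6 windows, with 2 in Hprt and 0 in Atrx, and 32.7% of all promoters hold one. Atrx instead held 3 CCAAT boxes and Pgk1 1, a motif (CCAAT, either strand) found in 33.8% of all promoters, and TATAAA was in 0 of the 6 and in 12.4% of all. Pgk1 and Ogt held 1 GC box each. The part of promoter content in the order of silencing given further on was not tested. The table of promoters used here lists no Dusp9 entry.

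Depth ranged from 8.58 to 34.4 M reads per library (median 22.5 M), and per library Dusp9 rested on 18 to 282 reads (median 106), against medians of 2211 reads for Hprt and 2621 for Pgk1 and higher ones for the others. Expression is in counts per M reads (CPM), both alleles together. The allelic ratio is the share of variant-covering reads that come from the Xi, Xi/(Xi + Xa), so that 0.5 is balanced and 0 is full silencing. The number of reads behind each ratio is unknown beyond the study's minimum of 10. In ChrRNA-seq of bulk cells, more cells that silence a gene and less RNA per cell cannot be told apart. Embryonic stem cell markers summed to between 617 and 2104 CPM, lowest in the WT XiO line (617 to 805), with 7 of 8 present and Sox2 listed at 0 in all 80 libraries. Feeder fibroblast markers summed to between 0.939 and 14.4 CPM, highest in the WT XiO line (10.2 to 14.4), and their part in the results was not tested.

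Before Xist induction the reporters differed in level and in allelic balance. Per kb of counted span, untreated METTL3 clones had most Huwe1 (26.2 ± 0.978 CPM per kb, SD, n = 4), followed by Atrx (17.8 ± 1.62), Ogt (14.8 ± 2.70), Pgk1 (9.82 ± 1.99), Klhl13 (7.49 ± 2.79), Hprt (4.69 ± 0.808) and Dusp9 (0.743 ± 0.326). The ranges of Atrx and Ogt, of Pgk1 and Klhl13, and of Klhl13 and Hprt overlapped, while Huwe1 lay above and Dusp9 below all others. The Cast chromosome supplied close to equal shares of Huwe1 (48.7 to 50.8%) and Atrx (45.6 to 49.2%). Hprt leaned away from Cast in all 16 untreated ratio libraries, with 37.7 to 45.5% (median 41.0%, n = 10) where Cast is the Xi and 44.0 to 48.1% (median 46.0%, n = 6) where 129S is the Xi. Klhl13 leaned to Cast in all but 1 of the 16, with 46.6 to 72.0% (median 63.7%) in the Cast-Xi libraries and 66.2 to 74.4% (median 71.5%) in the 129S-Xi libraries. Its untreated ratio was 0.686 in the METTL3 clone C3, 0.549 in G4, 0.543 in H5 and 0.466 in H1. No other reporter spread as far between clones of that line.

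Dox lowered the Xi share of every reporter measured in the METTL3 line, but by very different amounts. In the ratio table of this line, all 6 listed reporters fell with Dox (limma, adjusted p under the threshold), as did 90.1% of all genes tested. Pgk1 had untreated ratios of 0.487, 0.475, 0.473 and 0.479 in C3, G4, H1 and H5, and 0.153, 0.234, 0.182 and 0.214 with Dox. Hprt went from 0.413, 0.377, 0.397 and 0.424 to 0.159, 0.202, 0.165 and 0.186 in the same clones. Untreated and Dox clones lay far apart for both genes. For Pgk1 the change was -0.282 (SE 0.0155, adjusted p = 1.34e-08) and for Hprt -0.225 (SE 0.0174, adjusted p = 1.69e-07).

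Atrx and Huwe1 lost less of their Xi share in the same libraries. Atrx ranged from 0.473 to 0.483 untreated and from 0.267 to 0.327 with Dox, a change of -0.178 (SE 0.0122, adjusted p = 6.46e-08). Huwe1 ranged from 0.487 to 0.495 untreated and was 0.299, 0.361, 0.350 and 0.350 with Dox in C3, G4, H1 and H5, a change of -0.151 (SE 0.0147, adjusted p = 1.12e-06). Ogt, from 0.505 to 0.514 untreated, stayed at 0.372 to 0.428 with Dox, a change of -0.0993 (SE 0.0139, adjusted p = 2.68e-05). The groups did not overlap for any of the 3 genes. Klhl13 was 0.552, 0.504, 0.387 and 0.436 with Dox in C3, G4, H1 and H5, lower than untreated in each clone, although the Dox value of C3 exceeded the untreated values of the other 3. Its change was -0.0912 (SE 0.0159, adjusted p = 0.000161) with clone as a block, and without that block the adjusted p was 0.133.

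**Figure D1:**
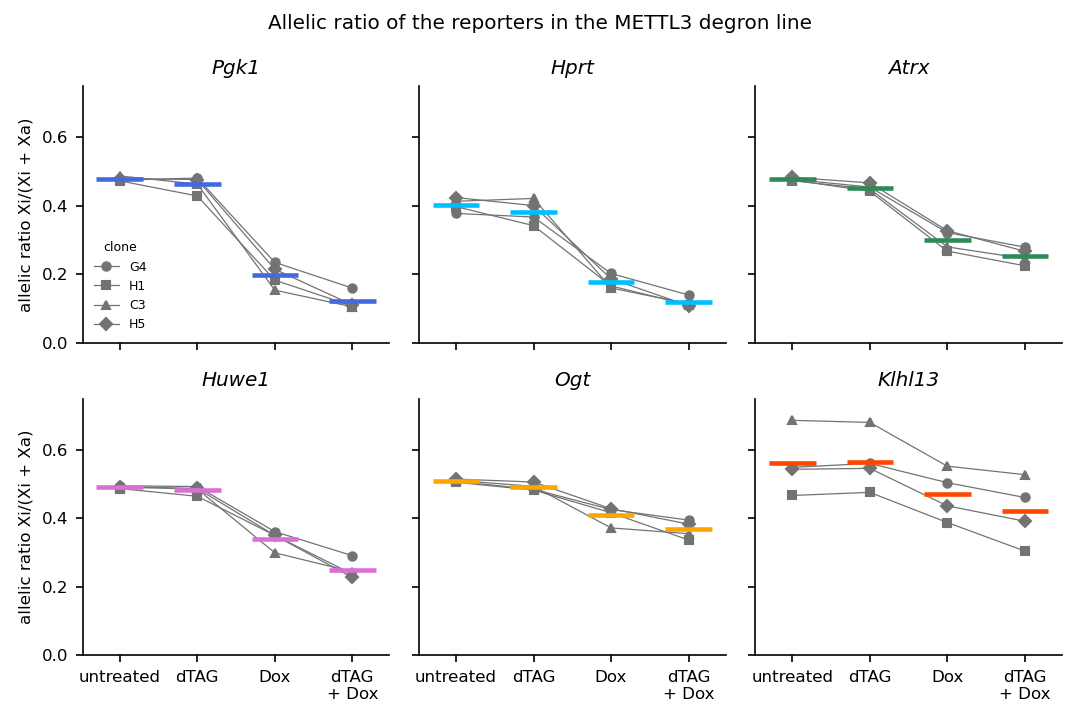
Allelic ratio Xi/(Xi + Xa) (y axis, from 0) of 6 reporters, 1 panel each, in the 4 METTL3 degron clones under the 4 treatments (x axis); symbols are clones joined by lines, and coloured bars are means. Pgk1 and Hprt drop furthest with Dox, the Klhl13 clones start apart, and each clone is lower again with dTAG + Dox for each gene.

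Expressed as the part of the untreated ratio that remained with Dox, Pgk1 kept 41.0% ± 7.76 (SD, n = 4 clones), Hprt 44.4% ± 6.43, Atrx 62.6% ± 5.83, Huwe1 69.2% ± 5.57, Ogt 80.5% ± 5.20 and Klhl13 83.9% ± 5.42, where the median over 392 genes was 57.4%. Of those genes, 21.9% kept less than Pgk1 and 26.8% less than Hprt, while 89.3% kept less than Ogt and 91.6% less than Klhl13. Pgk1 and Hprt were close neighbours (Hprt higher in 3 of 4 clones, exact sign-flip p = 0.25, two-sided), as were Ogt and Klhl13 (3 of 4, exact p = 0.375). The other 3 neighbouring pairs kept their order in 4 of 4 clones, which with 4 clones gives the smallest possible exact p of 0.125. Ogt, 1.84 Mb from Xist, and Klhl13, 80.1 Mb from it, kept most, and Pgk1, at 2.70 Mb, and Hprt, at 50.5 Mb, kept least. The part of this distance in the order was not tested.

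Pgk1 and Hprt were also lowest in the other lines with a Cast Xi. In all 10 clones or experiments with a Cast Xi, Pgk1 and Hprt were the 2 reporters that kept least with Dox, with Pgk1 lowest in 7, and, leaving out Dusp9, the highest was Klhl13 in 8 and Ogt in 2. In WT XX cells Pgk1 kept 46.4 and 27.7% and Hprt 40.4 and 38.6% in the 2 experiments. In D395A XX cells Pgk1 kept 14.1 and 29.2% and Hprt 26.9 and 27.9%, so that the 2 lines overlapped for Pgk1 and not for Hprt, a difference that was not tested. Where the Xi is 129S, Pgk1, Atrx and Huwe1 have no ratio in the deposited tables. There, among Hprt, Klhl13 and Ogt, Ogt kept most in all 6 pairs of libraries (4 clones, of which the YTHDC1 clones were measured in both experiments), from 69.7 to 77.9%. Hprt kept 52.8 to 69.1% and was the lowest of these 3 in 4 pairs, and Klhl13 kept 62.0 to 69.1% and was the lowest in 2. Dusp9, which rests on few reads, kept 21.4 to 73.9% in the same pairs, less than all 3 in 5 of them and more than Ogt in 1 (Y9F in the first YTHDC1 experiment). Klhl13 in the Cast-Xi libraries kept 76.7 to 96.4%, above all 6 values in the 129S-Xi libraries. Its untreated ratios differed as well, 0.466 to 0.720 against 0.256 to 0.338. For the same fold loss of Xi RNA, a higher starting ratio keeps a larger part. The part of the starting ratio in the rank of Klhl13 among the reporters was not tested. Between the Cast-Xi and 129S-Xi libraries the starting ratio, the strain of the Xi, the form of Xist, the clone and the tagged protein cannot be told apart.

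**Figure D2:**
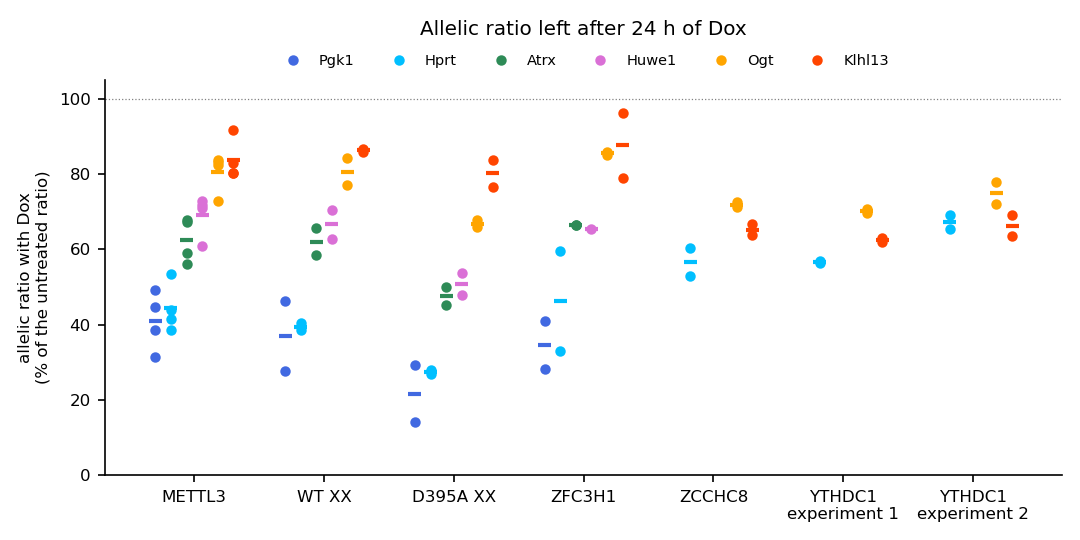
Allelic ratio with Dox as a percent of the untreated ratio (y axis, from 0) for each line (x axis); points are clones or experiments coloured by gene, bars are means, and the dotted line is no change. Pgk1 and Hprt are lowest in the 4 lines with a Cast Xi, and in the ZCCHC8 and YTHDC1 lines Ogt is above Klhl13.

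Over all lines, Dox lowered the ratio in 32 of 36 tests of a reporter in a line: 6 of 6 in METTL3, WT XX (88.0% of all genes lower) and D395A XX (92.7%), 3 of 4 in ZCCHC8 and in the first YTHDC1 experiment (93.9% each), 4 of 4 in the second (89.9%) and 4 of 6 in ZFC3H1 (81.5%). The 4 that did not pass were Dusp9 in ZCCHC8, the first YTHDC1 experiment and ZFC3H1, and Klhl13 in ZFC3H1. Dusp9 rests on few reads, and its untreated ratio already differed widely between clones, 0.579 and 0.395 in the ZCCHC8 clones Z12H and Z4F and 0.333 and 0.508 in the YTHDC1 clones Y12H and Y9F. With Dox these fell to 0.182 and 0.176 in ZCCHC8, and to 0.071 and 0.375 in YTHDC1. In the second YTHDC1 experiment Dusp9 went from 0.440 and 0.538 to 0.286 and 0.179, a change of -0.257 (SE 0.051, adjusted p = 0.00761). Klhl13 in ZFC3H1 was 0.678 and 0.654 in clone 11A and 0.644 and 0.509 in 8H, untreated and with Dox, so that 8H moved and 11A hardly did (adjusted p = 0.109).

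Genes whose ratios ran closest to each reporter over the 16 METTL3 libraries were picked as the smallest root mean square difference among 394 genes. For Hprt they were Rbmx (0.0175) and C77370 (0.0176), for Pgk1 Zfp185 (0.0205) and Gpc3 (0.0236), for Atrx Enox2 (0.0180) and Brwd3 (0.0189), and for Huwe1 Txlng (0.0180) and Fmr1 (0.0184). Ogt was nearest to Ddx3x (0.0253), a gene known to escape X inactivation, and to Atp6ap2 (0.0284). Klhl13 had no near counterpart, its closest being Rpgr (0.0702) and Tbc1d25 (0.0808).

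Depletion of METTL3 during Xist induction lowered the Xi share of all 6 reporters further, as it did for 55.4% of all genes tested. Huwe1 showed the largest drop, to 0.244, 0.291, 0.237 and 0.227 in C3, G4, H1 and H5, a change from Dox alone of -0.0905 (SE 0.0147, adjusted p = 0.00127). Pgk1 reached 0.104, 0.159, 0.107 and 0.110, a change of -0.0758 (SE 0.0155, adjusted p = 0.00241), and Hprt reached 0.113, 0.139, 0.110 and 0.108, a change of -0.0607 (SE 0.0174, adjusted p = 0.0124). Each of these values was below the Dox value of the same clone, and G4 remained the highest clone for all 3 genes, as it was with Dox. The Dox and dTAG + Dox ranges overlapped for Pgk1, where G4 with dTAG exceeded C3 without, and did not overlap for Huwe1 or Hprt.

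The remaining 3 reporters moved less. Atrx with dTAG + Dox ranged from 0.224 to 0.279 (change -0.045, SE 0.0122, adjusted p = 0.00979) and Ogt from 0.336 to 0.395 (change -0.043, SE 0.0139, adjusted p = 0.0219). Klhl13 was 0.527, 0.461, 0.304 and 0.391 in C3, G4, H1 and H5 (change -0.0491, SE 0.0159, adjusted p = 0.0219). All 4 clones were lower for each gene, but the ranges with and without dTAG overlapped. As a share of the Dox ratio, dTAG + Dox left 61.5% ± 8.05 (SD, n = 4) of Pgk1, 66.1% ± 5.75 of Hprt, 73.6% ± 8.60 of Huwe1, 85.0% ± 2.75 of Atrx, 88.8% ± 7.28 of Klhl13 and 89.6% ± 6.35 of Ogt. Huwe1 kept more of its untreated ratio than Atrx with Dox in 4 of 4 clones, whereas with dTAG + Dox Atrx kept more in 3 of 4 (Huwe1 51.7% ± 5.24, Atrx 56.0% ± 4.46, exact sign-flip p = 0.25).

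These calls depended on the clones included. Without H5, only Huwe1 and Pgk1 passed, with adjusted p of 0.0903 for Hprt, 0.0916 for Atrx, 0.111 for Ogt and 0.0939 for Klhl13, and without H1 Ogt (adjusted p = 0.158) and Klhl13 (0.142) did not. Xist rose from Dox to dTAG + Dox by 1.14 to 1.18 on the log2 scale in G4, H1 and H5 and by 0.12 in C3, and in C3 the ratios of the 6 reporters fell by 0.017 (Ogt) to 0.055 (Huwe1), for each of them the smallest fall among the 4 clones. The part of the Xist level in these falls was not tested.

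**Figure D3:**
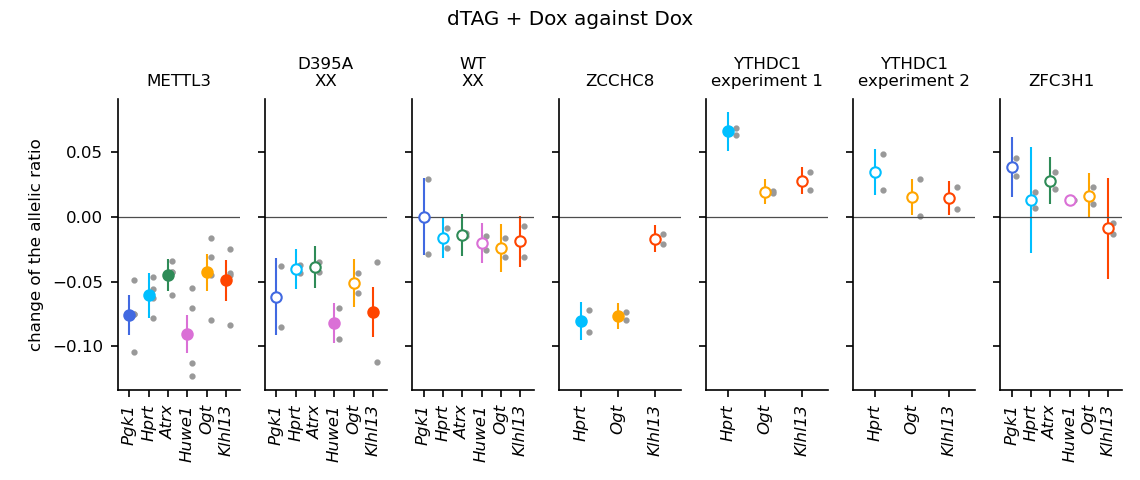
Change of the allelic ratio from Dox to dTAG + Dox (y axis, difference of ratios) for each reporter other than Dusp9 (x axis), 1 panel per line; circles are fitted changes with their standard errors, filled where the adjusted p passed, grey points are single clones or experiments, and Huwe1 in ZFC3H1 is 1 clone without a test. Changes are below 0 in METTL3, D395A XX and ZCCHC8 and above 0 in both YTHDC1 experiments.

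In the complementation lines the same comparison gave no call for 6 reporters with the WT transgene (0 at an unadjusted p under 0.05; 0.489% of 409 genes called in either direction) and 2 with D395A (20.8% of all genes lower). With D395A, Huwe1 went from 0.240 and 0.265 with Dox to 0.170 and 0.171 with dTAG + Dox, a change of -0.0821 (SE 0.0153, adjusted p = 0.0168). Klhl13 went from 0.552 and 0.595 to 0.517 and 0.483 (change -0.0736, SE 0.0193, adjusted p = 0.0287). Both experiments fell for both genes without overlap.

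Pgk1 in this D395A line was 0.066 and 0.139 with Dox and 0.028 and 0.053 with dTAG + Dox, a change that did not pass (adjusted p = 0.156). These were the lowest ratios of the 6 reporters, except that Hprt was lower (0.114) with Dox in the second experiment. As a share of its Dox ratio, Pgk1 kept 42.4 and 38.6% with dTAG + Dox in the 2 experiments. Differences of ratios are small by nature near 0, and on a logit scale, given further on, 6 of the 6 reporters passed in this line. With the WT transgene Huwe1 was 0.352 and 0.319 with Dox and 0.326 and 0.305 with dTAG + Dox (adjusted p = 0.854), and Pgk1 was 0.216 and 0.130 with Dox and 0.187 and 0.159 with dTAG + Dox (adjusted p = 1.00), so that its 2 experiments moved in opposite directions. Tested directly, the difference between D395A and WT passed for 0 of 6 reporters in limma (1 at an unadjusted p under 0.05, 0.489% of all genes called), with Huwe1 at -0.0617 (SE 0.0217, adjusted p = 0.264). Neither D395A call held when either experiment was left out, but those fits had 1 library per D395A group and took their spread from the WT line. They cannot tell a weaker effect from the loss of a library. The same limit applies to such omissions below in every line with 2 clones or experiments.

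In a table that holds both lines, Hprt fell with loss of ZCCHC8 and rose with loss of YTHDC1. With ZCCHC8 depletion Ogt fell from 0.335 and 0.351 (Z12H, Z4F) with Dox to 0.261 and 0.272, a change of -0.0766 (SE 0.00975, adjusted p = 0.000862). Hprt fell from 0.326 and 0.288 to 0.237 and 0.216 (change -0.0806, SE 0.0149, adjusted p = 0.00359). The clones did not overlap for either gene. These were 2 of 4 reporters tested, beside 47.3% of all 262 genes lower. Klhl13, from 0.226 and 0.181 to 0.213 and 0.160, did not pass (adjusted p = 0.211), nor did Dusp9, from 0.182 and 0.176 to 0.316 and 0.269 (adjusted p = 0.54).

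With YTHDC1 depletion Hprt rose from 0.296 and 0.292 (Y12H, Y9F) to 0.364 and 0.355, a change of 0.0656 (SE 0.0149, adjusted p = 0.0267), the single call among 4 reporters beside 13.7% of all genes higher. Ogt (0.334 and 0.338 to 0.354 and 0.357, adjusted p = 0.181) and Klhl13 (0.194 and 0.177 to 0.214 and 0.212, adjusted p = 0.094) were higher in both clones without passing. In the second experiment Hprt went from 0.373 and 0.367 to 0.421 and 0.388 (adjusted p = 0.31), and limma called 0 of 4 reporters and 0 of 278 genes, with 0 reporters at an unadjusted p under 0.05.

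The difference between the responses to ZCCHC8 and YTHDC1 loss passed for Hprt (-0.146, SE 0.021, adjusted p = 0.00129), Ogt (-0.0958, SE 0.0138, adjusted p = 0.00129) and Klhl13 (-0.0448, SE 0.0148, adjusted p = 0.031), beside 58.8% of all genes. Leaving out any 1 of the 4 clones ended the Klhl13 call (adjusted p 0.0785 to 0.27) and kept the other 2. For the responses within a line, Hprt no longer passed without the YTHDC1 clone Y9F (adjusted p = 0.315) or Y12H (0.325), nor in ZCCHC8 without Z12H (0.0555). Xist itself rose from 2986 and 2902 CPM to 7895 and 7934 CPM with ZCCHC8 depletion and was 2608 and 2043 CPM before and 2144 and 1927 CPM after YTHDC1 depletion, values whose part in these changes was not tested.

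With ZFC3H1 depletion, 0 of 6 reporters tested changed in ratio from Dox to dTAG + Dox in limma (0 at an unadjusted p under 0.05, 0% of 313 genes called). Pgk1 was 0.191 and 0.131 with Dox and 0.222 and 0.176 with dTAG + Dox in 11A and 8H, higher in both clones (adjusted p = 0.87), and Hprt was 0.240 and 0.151 against 0.246 and 0.169 (adjusted p = 0.972). The study describes clone 11A as informative only over the proximal part of the X. Huwe1, beyond that limit, had deposited ratios of 0.0124 to 0.0188 in 11A under all 4 treatments and was read in 8H alone, where it was 0.497 untreated and 0.324 with Dox, without a test. Total Huwe1 in 11A, 1090 to 1280 CPM, was also below the 1860 to 2615 CPM of 8H.

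Depletion without Dox gave no call of a changed allelic balance in any reporter. For dTAG against untreated, limma called 0 of 36 reporter tests over the 7 lines and experiments with ratios, and 1, Klhl13 in ZCCHC8 (change 0.03), had an unadjusted p under 0.05, beside 0.253% of all genes called in METTL3, 1.53% in ZCCHC8 and 0% in the others. Changes for genes other than Dusp9 lay between -0.03 and 0.03, with standard errors of 0.00975 to 0.0408. The dTAG effect with Dox minus that without Dox passed for Huwe1 in METTL3 (-0.0815, adjusted p = 0.0409, 14.2% of genes lower) and Ogt in ZCCHC8 (-0.0602, adjusted p = 0.0282, 14.5%), and leaving out G4, H1 or H5 in the first case or either clone in the second ended the call.

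Splitting each reporter's CPM by its allelic ratio gave a level for each X, on the assumption that variant reads stand for all reads of the gene. With Dox, the Xi level fell in 34 of 36 reporter tests, the exceptions being Ogt and Klhl13 in WT XX. Of all genes tested, 90.4% fell in METTL3, 96.9% and 95.3% in the YTHDC1 experiments, 95% in ZCCHC8, 88.5% in ZFC3H1, 85.6% in WT XX and 92.7% in D395A XX. Klhl13 in METTL3 did not pass without H1 (adjusted p = 0.0838), nor Klhl13 and Ogt in D395A XX without either experiment (0.0922 to 0.325). The Xa level rose in 2, Ogt in ZCCHC8 (0.23, log2) and in the first YTHDC1 experiment (0.29; 4.2% of genes higher in each), lost without either clone in ZCCHC8 (adjusted p 0.173 and 0.218) and without Y12H in YTHDC1 (0.335), and fell in 0 (6 of 36 in either direction at an unadjusted p under 0.05). In METTL3 clones the Xi level of Hprt was 63.7 CPM ± 12.7 (SD, n = 4) untreated, 18.9 ± 3.93 with Dox and 11.1 ± 2.02 with dTAG + Dox, whereas its Xa level was 93.9 ± 14.9, 88.3 ± 23.9 and 84.7 ± 21.1. The Xi level of Huwe1 was 1698 ± 55.5, 930 ± 144 and 454 ± 69.6, and its Xa level 1759 ± 74.9, 1811 ± 281 and 1362 ± 37.9. The Xa values of Hprt overlapped among these treatments, while the Xa values of Huwe1 with dTAG + Dox (1324 to 1414) lay below those with Dox (1495 to 2098).

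From Dox to dTAG + Dox, the Xi level passed in METTL3 for 5 of 6 reporters (45.3% of all genes lower): Huwe1 (-1.03, SE 0.164, adjusted p = 6.41e-05), Hprt (-0.71, SE 0.147, adjusted p = 0.000758), Atrx (-0.57, SE 0.158, adjusted p = 0.00615), Pgk1 (-0.48, SE 0.192, adjusted p = 0.0492) and Ogt (-0.42, SE 0.134, adjusted p = 0.0154), on the log2(level + 1) scale. No Xa level passed in limma (3 at an unadjusted p under 0.05, 8.1% of all genes called), the nearest being Huwe1 (-0.40, adjusted p = 0.0657). Klhl13, whose ratio fell, had no change in Xi level beyond its error (-0.03, adjusted p = 0.87). Its Xa level was 485 CPM ± 155 (SD, n = 4) with Dox and 565 ± 104 with dTAG + Dox. In total expression the median gene was higher by 0.23 in this comparison, and the levels of each X were not corrected for that shift. Pgk1 did not pass without G4 (0.143), H1 (0.106) or H5 (0.205), nor Ogt without H1 (0.0587) or C3 (0.0822).

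With dTAG alone, the METTL3 clones had more Pgk1 from both chromosomes (Xi 0.61, SE 0.192, 8.35% of genes higher; Xa 0.70, SE 0.156, 15.7%), less Ogt from the Xi (-0.41, SE 0.134, 7.09% of genes lower) and less Huwe1 from the Xa (-0.41, SE 0.126, 10.9%). On the Xa alone, Klhl13 rose in the first YTHDC1 experiment (0.19, 12.6% of genes higher) and fell in ZCCHC8 (-0.33, 10.3% lower), Ogt rose in ZFC3H1 (0.64, 0.639% higher) and Huwe1 fell in D395A XX (-0.36, 2.2% lower). Of these calls 6 were lost without 1 clone or experiment: Pgk1 on the Xi without H1, C3 or H5 (adjusted p 0.0515 to 0.185), Ogt on the Xi without G4, H1 or C3 (0.119 to 0.179), Huwe1 on the Xa without G4 or H5 (0.127 and 0.121) and in D395A XX without either experiment, and Klhl13 without Y9F (0.544) or Z12H (0.0814). The dTAG effect with Dox minus that without passed on the Xi for Pgk1 in METTL3 (-1.08, 16.2% of genes lower), Hprt and Ogt in ZCCHC8 (-0.64 and -0.40, 43.5%) and Hprt in the first YTHDC1 experiment (0.48, 11.8% higher).

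In ZCCHC8 the Xi level fell for Hprt (-0.88, SE 0.103), Ogt (-0.58, SE 0.0643) and Klhl13 (-0.33, SE 0.089), and the Xa level fell as well for Hprt (-0.33, SE 0.0786) and Klhl13 (-0.17, SE 0.0616) (64.1% of all genes lower on the Xi, 25.6% on the Xa). In the first YTHDC1 experiment Hprt rose on both, by 0.67 on the Xi and 0.26 on the Xa, and Klhl13 rose by 0.39 on the Xi (42.7% of all genes higher on the Xi, 10.3% on the Xa). Hprt also rose on the Xi in the second experiment (0.41, SE 0.124, adjusted p = 0.0353; 23.1% of all genes). Without Y12H the Xi rise of Hprt had an adjusted p of 0.0552 and its Xa rise 0.312, and the Xa rise was also lost without Y9F (0.159), as was the Xi rise of Klhl13 without Y9F (0.131) or Y12H (0.0565). In ZCCHC8 the Xa fall of Hprt was lost without Z12H (0.0599) and that of Klhl13 without Z4F (0.183) or Z12H (0.257).

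In D395A XX the Xi level fell for Huwe1 (-1.02, SE 0.129), Hprt (-0.59, SE 0.168) and Atrx (-0.56, SE 0.136), beside 29.8% of all genes, while that of Pgk1 (-1.19, SE 0.472) did not pass (adjusted p = 0.08). Hprt and Atrx were lost without either experiment (adjusted p 0.129 to 0.455) and Huwe1 without experiment 2 (0.0768). The Xi level of Huwe1 was the only one of the 6 that separated D395A from WT (difference -0.83, adjusted p = 0.0398, 2.2% of all genes lower), and it did not pass when any single experiment was left out (adjusted p 0.123 to 0.551).

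**Figure D4:**
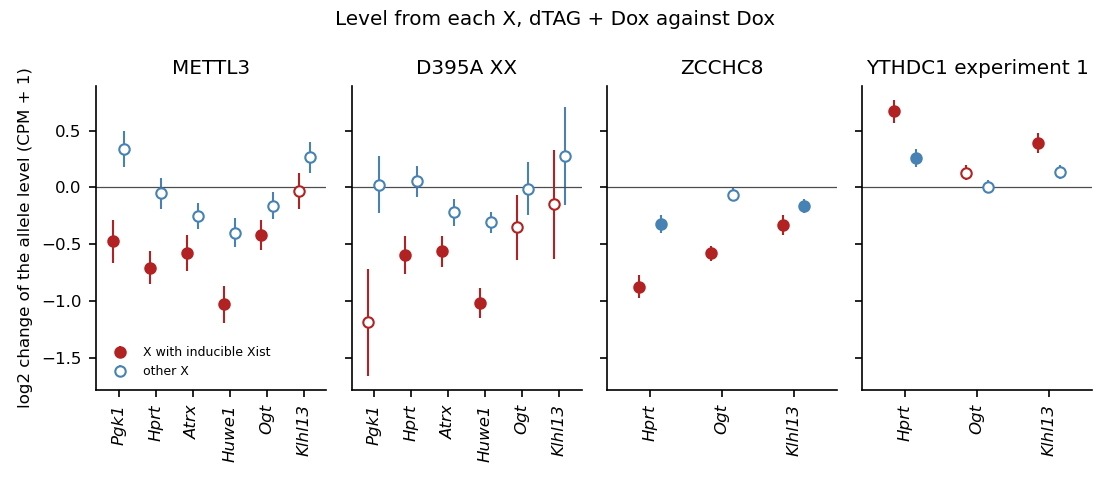
Change from Dox to dTAG + Dox in the level from the X with inducible Xist (red) and from the other X (blue) (y axis, log2 of CPM + 1) for each reporter (x axis) in 4 lines; circles are fitted changes with standard errors, filled where the adjusted p passed. In METTL3 the Xi change of Huwe1 is the lowest at -1.03 and no Xa circle is filled, whereas in ZCCHC8 Hprt and Klhl13 are filled on both chromosomes.

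Without allelic resolution the same loss was visible but smaller. Total expression fell with Dox in 19 of 63 reporter tests in limma on log2(CPM + 1) and rose in 0. In the first YTHDC1 experiment 5 of 7 reporters fell (6.67% of 13857 genes lower), Pgk1 most (-1.07, SE 0.0698, adjusted p = 3.52e-08), from 131 and 157 to 59.2 and 77.0 CPM. In ZCCHC8 4 of 7 fell (6.14%), in the second YTHDC1 experiment 4 (6.57%), in D395A XX 2 (0.195%) and in ZFC3H1 1 (0.916%). Without Y12H the YTHDC1 calls of Atrx (adjusted p = 0.191) and Dusp9 (0.104) were lost, without Y9F that of Dusp9 (0.129), without Z12H that of Atrx in ZCCHC8 (0.104), and without either experiment both D395A XX calls, Hprt and Huwe1. Among the 7 reporters, limma called 0 in METTL3 (0.778% of all genes in either direction) and 0 in WT XX (0.00748%), with 3 and 4 at an unadjusted p under 0.05, and edgeR on the recovered reads also called 0 in each.

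XiO cells have a single X, so total expression there is the level of the silenced chromosome. With Dox, Hprt fell from 59.1 and 57.8 to 21.0 and 19.5 CPM with the WT transgene (-1.48, SE 0.123, adjusted p = 0.000314) and from 57.7 and 58.8 to 25.7 and 26.7 CPM with D395A (-1.12, SE 0.123, adjusted p = 0.0031). Huwe1 fell from 1146 and 1449 to 654 and 700 CPM with WT (-0.93, SE 0.157, adjusted p = 0.0151). In each case the Dox libraries lay well below the untreated ones. With either experiment left out, Hprt did not pass in WT (adjusted p 0.0772 and 0.106) or D395A (0.443 and 0.774), nor Huwe1 in WT (0.161 and 0.377). These were 2 of 7 reporters in WT (1.12% of all genes lower) and 1 of 7 in D395A (0.535%).

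Pgk1 had the largest fitted drop of the reporters, but its level varied between experiments. It went from 121 and 79.4 to 31.3 and 9.03 CPM with WT (-2.46, SE 0.563, adjusted p = 0.0845). With D395A it went from 55.9 and 42.0 to 16.6 and 9.47 CPM (-1.87, SE 0.563, adjusted p = 0.413). Each experiment of both lines fell, and these fits had no block for the experiment. Atrx lost -0.64 and -0.65 in WT and D395A (adjusted p 0.0621 and 0.0885), and Klhl13 and Ogt had changes of -0.62 to -0.32 that did not pass. From Dox to dTAG + Dox, limma called 0 of 7 reporters in either XiO line and 0 for the difference of the lines (0% of genes in WT and for the difference, 0.0521% in D395A), edgeR called 0 in each, and 0, 2 and 2 reporters had an unadjusted p under 0.05 in WT, D395A and the difference.

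**Figure D5:**
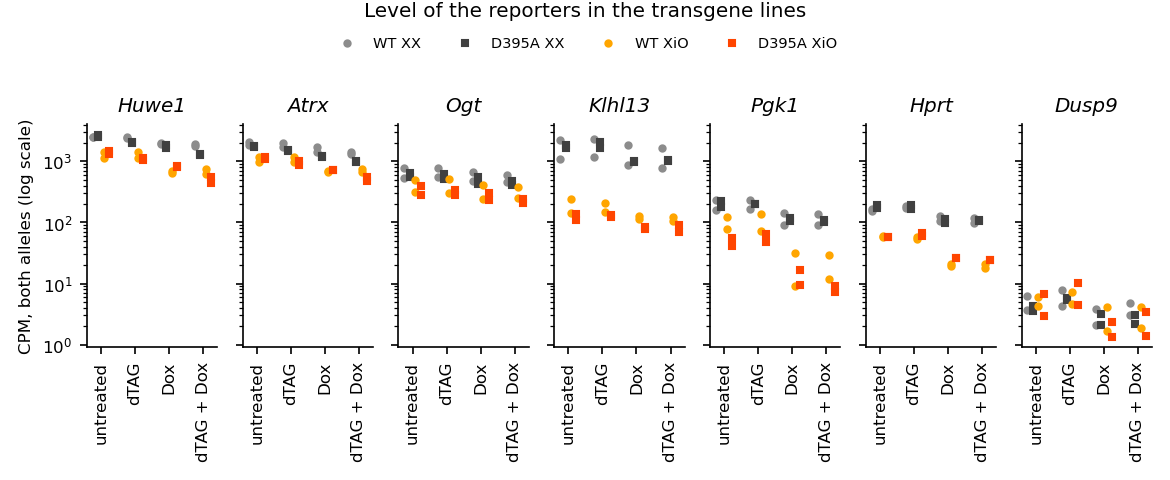
Total expression (y axis, CPM, log scale) of the 7 reporters, 1 panel each, in the WT and D395A transgene lines with both X chromosomes (grey and black) or only the X with inducible Xist (orange shades) under the 4 treatments (x axis); points are the 2 experiments. Hprt and Pgk1 drop with Dox in the XiO lines, and Klhl13 is far lower in XiO than in XX cells before any treatment.

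Depletion also moved the total level of some reporters with no Xist induction. In METTL3 clones dTAG alone raised Dusp9, from 1.50, 4.73, 2.80 and 3.08 CPM in C3, G4, H1 and H5 to 5.05, 12.9, 18.0 and 12.4 CPM (1.65, SE 0.278, adjusted p = 0.00199). Pgk1 rose from 184, 193, 120 and 155 to 349, 203, 233 and 255 CPM (0.66, SE 0.163, adjusted p = 0.0134), least in G4. Both rose in 4 of 4 clones. These were 2 of 7 reporters higher beside 16.9% of all genes, and Pgk1 did not pass without H1 (adjusted p = 0.0678) or H5 (0.0929).

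Huwe1 fell by 0.44 (SE 0.115, adjusted p = 0.0179) and Ogt fell by 0.36 (SE 0.108, adjusted p = 0.0304), beside 6.34% of genes lower, while the median gene shifted by 0.21. Huwe1 did not pass without G4, H1 or H5 (adjusted p 0.101, 0.0652 and 0.0928), nor Ogt without G4, H1 or C3 (0.152, 0.13 and 0.0653). With Dox present, dTAG lowered Huwe1 alone among the 7 in METTL3 (-0.58, SE 0.115, adjusted p = 0.0113, 1.94% of genes lower), from 2839, 2603, 2299 and 3227 to 1797, 1902, 1852 and 1712 CPM, against a median gene at 0.23. The ranges did not overlap, although without G4 or H5 the call was lost (adjusted p 0.0768 and 0.124). Huwe1 also fell in D395A XX (-0.46, SE 0.0814, adjusted p = 0.015, 0.733% of genes lower), from 1668 and 1848 to 1254 and 1304 CPM, which did not pass when either experiment was left out (adjusted p 0.478 and 0.991). In WT XX, where Huwe1 was 1953 and 2004 CPM with Dox and 1890 and 1800 CPM with dTAG + Dox, limma and edgeR called 0 of 7 reporters (0 at an unadjusted p under 0.05, 0% of genes).

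With dTAG alone, Klhl13 rose in both YTHDC1 experiments (0.19, SE 0.0561, 10.6% of genes higher, and 0.24, SE 0.0672, 8.34%) and fell in ZFC3H1 (-0.37, SE 0.081, 0.399% of genes lower), Pgk1 fell in the second YTHDC1 experiment (-0.31, SE 0.0808, 9.42% lower) and Huwe1 fell in D395A XX (-0.38, SE 0.0814, 1.15% lower). Klhl13 did not pass without Y9F in the first YTHDC1 experiment (adjusted p = 0.563), nor Huwe1 in D395A XX without either experiment (0.412 and 0.713). In WT XX, WT XiO and D395A XiO limma and edgeR called 0 of 7 with dTAG alone (0%, 0% and 0.402% of genes; 0 reporters at an unadjusted p under 0.05), as for the difference of D395A XX and WT XX with Dox (0.015%; 1 at an unadjusted p under 0.05).

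Ogt rose in ZFC3H1-depleted cells. It was 786 and 544 CPM untreated in 11A and 8H, 1208 and 892 with dTAG, 712 and 548 with Dox and 1153 and 980 with dTAG + Dox. Each dTAG library was above every library without it, in both clones. The change was 0.67 without Dox (SE 0.0862, adjusted p = 0.00467, 1.75% of all genes higher) and 0.77 with Dox (SE 0.0862, adjusted p = 0.00228, 2.53%), and Ogt was the only 1 of 7 reporters called with Dox. On the separate chromosomes the Xa level passed (0.72, SE 0.109, adjusted p = 0.00433, 0.639% of genes) and the Xi level did not (0.82, SE 0.113, adjusted p = 0.0607).

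In ZCCHC8-depleted cells 5 of 7 reporters fell with Dox present (15.2% of all genes lower): Hprt (-0.48, SE 0.0684), Pgk1 (-0.35, SE 0.0698), Huwe1 (-0.32, SE 0.0414), Ogt (-0.22, SE 0.049) and Klhl13 (-0.20, SE 0.0561). Pgk1 was already lower with dTAG alone, 60.3 and 79.1 CPM against 84.5 and 121 CPM untreated (-0.54, SE 0.0698, adjusted p = 1.81e-05), where 4 of 7 reporters fell beside 16.2% of genes. Of the other 3, Hprt (adjusted p = 0.375) and Klhl13 (0.0582) did not pass without Z12H, nor Huwe1 without either clone. In the first YTHDC1 experiment Hprt (0.40, SE 0.0684), Pgk1 (0.23, SE 0.0698) and Klhl13 (0.19, SE 0.0561) rose with Dox present (9.84% of genes higher). Hprt, from 79.7 and 75.8 to 109 and 97.0 CPM, was above its Dox level in both clones. In the second YTHDC1 experiment Hprt rose again (0.29, SE 0.0749, adjusted p = 0.0115) with Dusp9 (0.48, SE 0.145, adjusted p = 0.0286; 8.32% of genes higher), and Atrx fell (-0.26, SE 0.0714, adjusted p = 0.016; 6.34% lower). In the tested difference of the 2 responses, 5 of 7 reporters were lower in ZCCHC8 in total expression (12.7% of all genes), 3 of 4 on the Xi (72.9%) and 2 of 4 on the Xa (19.8%). Of the calls with Dox, the 3 rises of the first YTHDC1 experiment did not pass without Y12H (adjusted p 0.103 to 0.562), nor did Klhl13 and Pgk1 without Y9F, and in ZCCHC8 Klhl13 did not pass without either clone nor Ogt without Z12H.

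Between XX and XiO cells with the transgenes, untreated, the reporters differed to unequal degrees. The values come from tables normalised separately and are given without a test. Klhl13 was 1698 CPM ± 470 (SD, n = 4 libraries of 2 clones) in XX and 158 ± 59.1 in XiO, a level of 9.33% of that in XX, against a median of 53.0% over 442 X-linked genes, of which 3 were as low or lower including Klhl13, and 103% over 12598 autosomal genes. Hprt stood at 33.7%, Pgk1 at 37.1%, Huwe1 at 51.9%, Atrx at 59.4%, Ogt at 59.6% and Dusp9 at 112%. In these untreated libraries stem cell markers summed to 702 to 771 CPM in WT XiO and 1133 to 1666 CPM in D395A XiO against 1253 to 1686 CPM in XX, and feeder markers to 13.4 to 14.4 CPM in WT XiO and 1.04 to 1.20 CPM in D395A XiO against 1.05 to 5.76 CPM in XX. Klhl13 was 144 and 244 CPM in WT XiO and 110 and 136 CPM in D395A XiO, so that it was low in both lines. It also varied among XX clones without a transgene. Untreated it was 813 CPM in H5, the parent of these lines, 726 in H1, 1221 in G4 and 1609 in C3. The H5 level lay below the lowest XX transgene library (1085 CPM) and above the highest XiO library. The part of the clone in the gap was not tested. Xist was 179 CPM in untreated XX and 4.66 CPM in untreated XiO cells.

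Other genes of the same pathways were described from lists, chosen with earlier results of these data known, as counts beside all genes tested. Of 12 further X-linked reporters, 10 had a lower ratio with dTAG + Dox than with Dox in METTL3 (55.4% of all genes), among them Atp7a (-0.0977, SE 0.0134), Fmr1 (-0.0904, SE 0.0143) and G6pdx (-0.088, SE 0.0222), and their median was -0.07 against -0.06 over all genes. In D395A XX 4 of 12 were lower (20.8% of all genes), and in ZCCHC8 4 of 9 (47.3%), led by Lamp2 (-0.11, SE 0.0145). In the first YTHDC1 experiment 2 of 9 were higher (13.7% of all genes), Lamp2 (0.0687, SE 0.0145) and Msn (0.0761, SE 0.016). Of 8 genes known to escape X inactivation 3 were lower in METTL3 (beside the same 55.4%), Ddx3x (-0.0661, SE 0.016), 5530601H04Rik (-0.0704, SE 0.0182) and Pbdc1 (-0.0371, SE 0.0124).

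Among autosomal partners in expression from Dox to dTAG + Dox, 4 of 9 purine genes fell with Hprt in ZCCHC8 (Atic -0.30, Ppat -0.26, Gmps -0.25 and Gart -0.19), where 15.2% of all genes fell and 25.2% rose. In the first YTHDC1 experiment 1 of 9 fell (Ppat -0.22), beside 5.69% of all genes. Of 10 glycolytic genes, 4 fell in ZCCHC8 (Gpi1 -0.34, Ldha -0.23, Eno1 -0.20 and Hk2 -0.19) and Pkm rose (0.14), and 1, Gpi1, fell in the first YTHDC1 experiment (-0.49), where Pgk1 rose. In METTL3, where 8.6% of all genes rose and the median gene was higher by 0.23, 2 of 7 targets of MAPK signalling, which DUSP9 dampens, rose (Dusp4 0.80 and Spry4 0.79). In ZCCHC8 2 of these 7 rose and 1 fell, and in the first YTHDC1 experiment 3 rose, beside 9.84% of all genes. Klhl9, which pairs with KLHL13 in a CUL3 ligase, rose in METTL3 (0.52), ZCCHC8 (0.28) and both YTHDC1 experiments, the single call among 5 direct partners tested in each. Of 20 genes of the Xist silencing machinery, 2 rose in METTL3, Rbm15 (0.49) and Pcgf3 (0.37).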

How the data were processed

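Chromatin-associated RNA was sequenced in 80 libraries. Per the labels and the study's methods, the authors filtered out rRNA with bowtie2 and aligned with STAR to an N-masked mm10 genome. They kept unique alignments, split alleles with SNPsplit, counted reads over whole transcripts by strand with featureCounts, introns included, and scaled them with edgeR. The authors deposited CPM per gene in 6 tables, and allelic ratios, as fractions from 0 to 1, for genes with at least 10 variant reads in 5 tables. The reads behind a ratio are not given. 24 columns matched no sample and were not used. CPM gave whole reads within 0.1 read for 100% of values, and depth was 8.58 to 34.4 M reads. No molecular identifiers were used, so depth covers counting error only. Columns and samples were grouped by the labels, and the titles' 26 h of dTAG were followed.

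Ratios were tested with limma 3.58.1 in R 4.3.3, and expression as log2(CPM + 1), for genes whose mean reached 1 CPM, with limma's trend. Fold changes on this scale understate low genes. Xi and Xa levels were CPM times the ratio and CPM times 1 minus the ratio. The degron lines had clone as a block, since their labels name it, and libraries of a clone deviated together on average (mean residual correlations of 0.29 to 0.60 in METTL3). The transgene lines had no block, since their labels only number the experiments. Libraries of an experiment also deviated together there (mean residual correlations of 0.57 to 0.88), so the errors of these lines include the spread between experiments. Counts with such a block are given further on. P-values were adjusted over all genes (Benjamini-Hochberg), with a call under 0.05. Each line was fitted over its 4 treatments, and ZCCHC8 shared its fit with the first YTHDC1 experiment. The WT line shared a fit with the D395A line in XX cells and another in XiO cells. Single values were compared by exact sign-flip tests, two-sided. edgeR 4.0.16 on the recovered reads, other scalings, pseudocounts, filters, blocks, a logit scale and omission of each replicate were alternatives. Scripts were tested on simulated data. The 7 genes are the members named for this work, every one is described, and other genes are named from lists or as the nearest in ratio. The members and lists were chosen with earlier results of these data known. Promoters came from RefSeq (GRCm38.p6).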

Additional observations from a re-analysis of the deposited data

Results flagged for a closer look

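Among 52 groups of 4 samples, the clone G4 stood apart for the Pgk1 ratio in METTL3 with dTAG + Dox, at 0.159 against 0.104 to 0.110, a gap of 0.892 of the group's range, above Dixon's 95% critical value. Chance marks about 1 in 20 groups.

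The effect of dTAG differed with and without Dox. In METTL3 this was so for the ratio of Huwe1 (-0.0815) and the Xi level of Pgk1 (-1.08, log2). In ZCCHC8 it was so for the ratio of Ogt (-0.0602) and the Xi levels of Hprt (-0.64) and Ogt (-0.40), and in the first YTHDC1 experiment for the Xi level of Hprt (0.48). Without H5 the Pgk1 value was no longer called (adjusted p = 0.171), nor without G4 (0.0632), and the Hprt value in YTHDC1 was lost without either clone (0.449 and 0.492).

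The response to dTAG with Dox differed between ZCCHC8 and the first YTHDC1 experiment, by limma across all genes. On the log2 scale of total expression it was lower in ZCCHC8 for Hprt (-0.88), Pgk1 (-0.57), Klhl13 (-0.38), Huwe1 (-0.34) and Ogt (-0.27). In ratio it was lower for Hprt (-0.146), Ogt (-0.0958) and Klhl13 (-0.0448). The Xi level was lower for Hprt (-1.55), Klhl13 (-0.72) and Ogt (-0.71), and the Xa level for Hprt (-0.58) and Klhl13 (-0.30). The Xa call of Klhl13 was lost without Z4F (adjusted p = 0.0724) or Z12H (0.107), and the expression call of Ogt without Y9F (0.064) or Z12H (0.0567). D395A XX differed from WT XX in the Xi level of Huwe1 (-0.83).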

How the results depend on the processing

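Of 4523 reporter results under the alternatives, 0 called values changed sign, and of 1094 that were called 876 stayed called. The number of reads behind each ratio, 2 clones or experiments in most lines and few Dusp9 reads limit these results. Counts of called reporters moved as follows; the cause was not tested. With the replicate block switched, total expression with Dox went from 19 calls to 34, Xa levels with Dox from 2 to 0 and Xi levels with dTAG alone from 2 to 1. In the transgene lines, where numbers only name experiments, a replicate block took D395A against WT from 0 to 1 in expression of XX, 0 to 2 in XiO, 1 to 2 in Xi and 0 to 1 in Xa levels. Without the clone block ZCCHC8 against YTHDC1 went from 5 to 3 in expression and 2 to 1 in Xa levels. On the logit scale the ratio calls with dTAG + Dox went from 2 to 6 in D395A XX and 0 to 1 for D395A against WT, and those of the dTAG effect with minus without Dox from 0 to 2 in D395A XX, 1 to 3 in METTL3 and 1 to 2 in ZCCHC8. With only the groups compared, ratio calls fell to 0 in D395A XX, YTHDC1 and ZCCHC8. Testing all genes above 0 took expression calls with dTAG + Dox and with dTAG alone from 14 to 8 each, and a pseudocount of 0.1 took Xi calls with dTAG alone from 2 to 0. Leaving out 1 replicate gave 2 to 6 ratio calls with dTAG + Dox in METTL3, 1 to 2 in ZCCHC8, 0 in YTHDC1 and D395A XX and 2 for ZCCHC8 against YTHDC1, with 0 to 1 for the dTAG effect with minus without Dox in METTL3 and 0 in ZCCHC8. It gave 17 to 19 expression calls with Dox, 11 to 14 with dTAG + Dox and with dTAG alone, 4 to 5 for ZCCHC8 against YTHDC1, 0 Xi calls for D395A against WT, 0 to 2 Xi calls with dTAG alone and 3 to 4 for its effect with minus without Dox, and in Xa levels 1 to 2 with Dox, 2 to 5 with dTAG + Dox and 1 to 2 for ZCCHC8 against YTHDC1. The second YTHDC1 experiment and ZFC3H1 left no residual degrees of freedom. The other lines with 2 clones or experiments kept 1 library per group and took their spread from the line that shares their fit. Keeping the uninformative stretch of 11A, chosen after seeing the data, left the ZFC3H1 counts at 4 with Dox and 0 otherwise.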
